A study of Homo sapiens with 3 samples.

Results

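The genes described here encode the subunits of the proteasome that are present in nearly all cells. The 31 members were chosen by symbol from a gene expression table of 58735 rows, and each symbol was found on 1 row. They fall into 4 subunit classes: 7 α subunits of the 20S core (PSMA1 to PSMA7), 7 β subunits of the core (PSMB1 to PSMB7), 6 ATPases of the 19S regulatory particle (PSMC1 to PSMC6) and 11 non-ATPase subunits of that particle (PSMD1, PSMD2, PSMD3, PSMD4, PSMD6, PSMD7, PSMD8, PSMD11, PSMD12, PSMD13 and PSMD14). The values come from RNA-seq of H660 cells, a human neuroendocrine prostate cancer (NEPC) cell line used in its parental form. Cells were treated for 24 h with the vehicle DMSO, with 2.5 μM JG231 or with 5 μM JG231. JG231 is an allosteric inhibitor of HSP70, a chaperone that the study examined as a partner of N-Myc in protein turnover. All 3 libraries come from this single line, with 1 library per condition, so no standard deviation or p-value can be given and every difference is one between 2 libraries.

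The 20S core is a barrel of stacked rings. Outer rings of α subunits form the gate, and inner rings of β subunits hold the proteolytic sites. The 19S particle caps the barrel: its non-ATPase subunits bind and remove ubiquitin chains, while its ring of ATPases unfolds the protein and threads it through the gate. Each of these subunits has a fixed place in the assembled particle, and their genes are known for being regulated together, among others by the transcription factor NFE2L1 when proteasome capacity is short.

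Values are FPKM, fragments scaled to exon length and to library size, as deposited. Read from the steps between low FPKM values, depth was 16.1 M fragments for DMSO, 20.4 M for 2.5 μM and 24.1 M for 5 μM. Depth was thus ordered as the dose, while the rows above 0 FPKM went the other way, with 21862, 19352 and 17293 in the same order. The part of either in the changes was not tested. FPKM is relative to the whole library, so more RNA of a gene and less of the others cannot be told apart. The members were well covered, with fragment numbers from about 159 for PSMA6 in DMSO, the fewest, to about 12432 for PSMD8 at 5 μM, the most. The sample labels call the cell type prostatic adenocarcinoma. The neuroendocrine markers SYP, CHGA, ENO2, NCAM1 and INSM1 lay between 6.16 and 46.0 FPKM in the DMSO library, whereas the luminal adenocarcinoma markers KLK3 and TMPRSS2 stayed at or below 0.32 FPKM and KLK2 was listed at 0. The leukocyte marker PTPRC and the endothelial marker PECAM1 were listed at 0 in all libraries, and the fibroblast gene COL1A1 lay between 0.74 and 1.27 FPKM.

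With FPKM as deposited, most proteasome genes were higher in the 5 μM library than in the DMSO library, although their median turned to -0.04 when mitochondrial and small RNA genes were left out of the scaling. A gene was counted as higher or lower when its FPKM was over 1 in either library compared and its log2 change, computed as log2((FPKM + 0.1)/(FPKM + 0.1)), was over 0.25 or under -0.25. All 31 members passed the expression filter. At 5 μM, 21 of 31 members were higher and 2 were lower, with a median log2 change of 0.34. The background was 36.5% higher and 45.1% lower among the 15765 genes passing the same filter, whose median was -0.11. Proteasome genes are abundantly expressed, however, and among the 4737 genes averaging 10 FPKM or more the background was 55.9% higher and 21.8% lower with a median of 0.35. Of the 27 members with such a mean, 20 (74.1%) were higher and 1 (3.70%) was lower, with a median of 0.34. The median of the members was thus close to that of abundant genes in general, and no test of the difference in shares was possible.

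At 2.5 μM, 12 of 31 members were higher and 5 were lower, with a median log2 change of 0.16. Over all genes passing the filter the background was 36.4% higher and 43.4% lower, and the median of these 15746 genes was -0.08. Among abundant genes it was 53.1% higher and 21.2% lower with a median of 0.30, compared to 11 (40.7%) and 3 (11.1%) of the 27 abundant members and a median of 0.18. The median of the members lay below that of abundant genes at this dose. Between the doses, 13 of 31 members were higher at 5 μM than at 2.5 μM and 0 were lower, with a median of 0.20. The background was 26.8% higher and 30.1% lower over 14197 genes with a median of -0.02, and 21.4% higher and 15.1% lower among abundant genes with a median of 0.04. Of the abundant members, 12 of 27 (44.4%) were higher and 0 were lower. The comparisons share libraries, the DMSO library being the reference of both doses, and are given side by side.

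**Figure D1:**
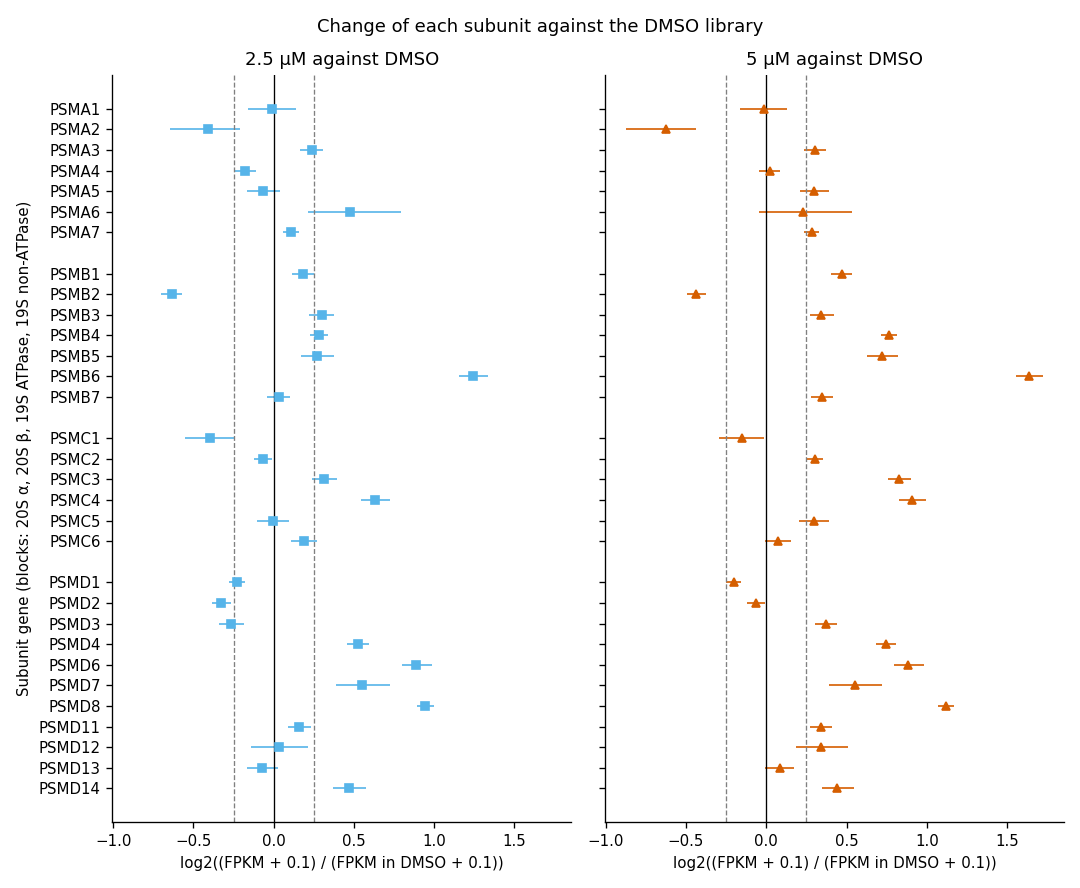
Log2 change of each of the 31 subunit genes compared to the DMSO library at 2.5 μM (left, squares) and 5 μM JG231 (right, triangles), with 95% counting intervals as horizontal lines and dashed lines at 0.25 and -0.25. PSMB6 lies farthest to the right in both panels at 1.24 and 1.64, and PSMA2 and PSMB2 lie left of the dashed line in both.

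These directions depend on how the libraries are scaled. Rescaling to a common sum of FPKM without mitochondrial and small RNA genes shifted the changes by about -0.38 at 5 μM, -0.29 at 2.5 μM and -0.09 between the doses, slightly less for members of low FPKM. The median of the members then became -0.04 at 5 μM and -0.13 at 2.5 μM, with 8 members higher and 9 lower at 5 μM beside 22.9% and 60.1% of all genes tested, and 5 higher and 14 lower at 2.5 μM beside 24.6% and 56.2%. The medians of abundant genes were then -0.03 and 0.01. At 5 μM 14 of the 31 members changed sign, and the members still higher were PSMB4, PSMB5, PSMB6, PSMC3, PSMC4, PSMD4, PSMD6 and PSMD8. A common sum of all FPKM instead shifted the comparison between the doses by -0.18, which left 4 members higher and 3 lower there with a median of 0.02, beside 16.9% and 45.2% of all genes. Such a rescaling moves all genes nearly alike, so it hardly alters the order of the members. Under the 10 alternatives that keep the threshold of 0.25, 6 members were higher at 5 μM each time, namely PSMB6, PSMC3, PSMC4, PSMD4, PSMD6 and PSMD8. PSMB2 was lower at 5 μM each time, and PSMA2 was lower wherever it was kept, its mean FPKM being under 5 and its exons overlapped by another gene. At 2.5 μM the members past the threshold each time were PSMB6, PSMC4, PSMD6, PSMD7 and PSMD8 on the higher side and PSMB2, PSMC1 and PSMD2 on the lower side, again with PSMA2 wherever it was kept.

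Promoter sequences of the members with the largest changes are shown so that the genes at both ends of the range can be compared. RefSeq start sites on GRCh38.p14 were matched by symbol for 26 of 31 members, and PSMA7, PSMB1, PSMB6, PSMB7 and PSMD4 were not matched. Among the matched members whose sign was the same at both doses, PSMD8 and PSMC4 had the highest changes at 5 μM and PSMA2 and PSMB2 the lowest. The 250 bases before the start are given 5′ to 3′ on the strand of the gene, with motif matches in capitals: PSMD8 at chr19:38374321-38374570 on the plus strand, PSMC4 at chr19:39970915-39971164 on the plus strand, PSMA2 at chr7:42932175-42932424 on the minus strand and PSMB2 at chr1:35641527-35641776 on the minus strand.
PSMD8: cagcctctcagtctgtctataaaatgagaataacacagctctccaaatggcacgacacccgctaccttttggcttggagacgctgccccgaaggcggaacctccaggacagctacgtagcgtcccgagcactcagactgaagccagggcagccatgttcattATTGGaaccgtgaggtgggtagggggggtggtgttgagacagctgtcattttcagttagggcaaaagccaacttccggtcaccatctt
PSMC4: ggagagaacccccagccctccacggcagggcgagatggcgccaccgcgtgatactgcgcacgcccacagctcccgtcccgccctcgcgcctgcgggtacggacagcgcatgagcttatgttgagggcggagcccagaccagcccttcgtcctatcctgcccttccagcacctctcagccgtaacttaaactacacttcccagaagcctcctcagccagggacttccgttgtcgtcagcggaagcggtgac
PSMA2: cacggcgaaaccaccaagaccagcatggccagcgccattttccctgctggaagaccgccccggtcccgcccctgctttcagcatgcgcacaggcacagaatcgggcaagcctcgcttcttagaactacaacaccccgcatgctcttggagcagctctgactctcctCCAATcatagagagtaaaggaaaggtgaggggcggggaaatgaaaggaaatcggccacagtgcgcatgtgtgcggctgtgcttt
PSMB2: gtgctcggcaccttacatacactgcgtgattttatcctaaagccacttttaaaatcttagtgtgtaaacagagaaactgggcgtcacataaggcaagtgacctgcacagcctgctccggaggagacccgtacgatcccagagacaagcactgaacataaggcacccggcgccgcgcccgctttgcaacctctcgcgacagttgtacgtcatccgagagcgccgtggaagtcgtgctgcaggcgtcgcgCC
The motifs were searched on both strands of the 300 bases from 250 before to 50 after the start, and none of them overlapped another in these genes. The capitals in PSMD8 mark CCAAT on the opposite strand, at bases 163 to 167. In PSMA2 the capitals mark CCAAT on the strand of the gene, at bases 167 to 171. The CCAAT of PSMB2 spans bases 249 to 253 and only its first bases are printed. PSMC4 holds TGACNNNGC, the core of the antioxidant response element bound by NFE2L1 and NFE2L2, on the opposite strand at bases 278 to 286, past the printed stretch. A match is a run of letters and not a measured site.

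Over the 26 matched members, CCAAT, the box bound by NF-Y, occurred in 15 (57.7%), compared to 39.7% of 27305 genes. TGACNNNGC occurred in 7 members (26.9%) and in 16.1% of genes. TGATGNAA, the core bound by ATF4 with its partners, occurred in 0 members and 4.46% of genes. The heat shock element core GAANNTTC occurred in 0 members and 8.21% of genes. The median change at 5 μM was 0.34 for members with CCAAT and 0.08 for those without it, but PSMD8 and PSMA2, at opposite ends of the range, both held it. With TGACNNNGC the median was 0.34 and without it 0.30.

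The changes of the β subunits covered the widest range of the 4 classes at 5 μM, from -0.44 to 1.64. Gene coordinates are those of GENCODE release 44 on GRCh38, and values cover all exons of a gene. PSMB6 (ENSG00000142507, chr17:4796144-4798502, plus strand), which carries the caspase-like site, was at 59.2 FPKM in the DMSO library and reached 140.2 and 184 FPKM in the 2.5 μM and 5 μM libraries. Both JG231 libraries were far above the DMSO library. This was the highest change of any member, with a log2 change of 1.64 at 5 μM (95% counting interval 1.55 to 1.72, 3.11-fold) and 1.24 at 2.5 μM (1.16 to 1.33). PSMB5 (ENSG00000100804, chr14:23016543-23035230, minus strand), which carries the chymotrypsin-like site that is the main target of clinical proteasome inhibitors, had 50.6, 61.2 and 83.6 FPKM in the same order of libraries. Its level was higher in each successive library, with a log2 change of 0.72 (0.63 to 0.82) at 5 μM and 0.27 (0.17 to 0.38) at 2.5 μM. PSMB7 (ENSG00000136930, chr9:124353465-124415444, minus strand), which carries the trypsin-like site, had 92.3, 94.2 and 117 FPKM. DMSO and 2.5 μM could hardly be separated for PSMB7, with a log2 change of 0.03 (-0.04 to 0.10), and the 5 μM library was higher by 0.35 (0.28 to 0.42). The change of PSMB7 at 2.5 μM was -0.26 without mitochondrial and small RNA genes and -0.31 with the length trend removed, and at 5 μM it was -0.03 and -0.19.

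The order of the 3 catalytic subunits therefore differed between libraries. PSMB7 was the highest of them in DMSO, whereas PSMB6 was the highest in both JG231 libraries. Expressed per length of the canonical transcript instead of all exons, the levels in DMSO were 75.1 for PSMB5, 104 for PSMB6 and 168 for PSMB7, and those at 5 μM were 124, 324 and 213, with the same orders. Rescaling does not alter an order within a library, but under the rescaling without mitochondrial and small RNA genes PSMB7 was at -0.03 at 5 μM and PSMB5 at -0.02 at 2.5 μM.

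PSMB2 (ENSG00000126067, chr1:35599541-35641526, minus strand), a structural β subunit, went the other way, from 56.7 FPKM in DMSO to 36.5 in the 2.5 μM and 41.9 in the 5 μM library. Both JG231 libraries were below the DMSO library, by log2 changes of -0.63 (-0.70 to -0.57) at 2.5 μM and -0.44 (-0.50 to -0.37) at 5 μM. Its canonical transcript of 4426 bp is the longest among the members, and its CCAAT lies across the start shown above. The 3 other structural β subunits were higher at 5 μM as deposited. PSMB4 had 125, 152 and 212 FPKM with a log2 change of 0.76 at 5 μM and 0.28 at 2.5 μM. PSMB1 had 80.3, 91.3 and 111 FPKM with 0.47 and 0.18, and PSMB3 had 117, 144 and 148 FPKM with 0.34 and 0.30. Between the doses PSMB4 differed by 0.48, whereas PSMB3 differed by only 0.04. At 5 μM PSMB1 and PSMB3 were at 0.09 and -0.04 without mitochondrial and small RNA genes in the scaling, and at -0.10 and -0.27 with the length trend removed, while PSMB4 was at 0.38 and then at 0.20. At 2.5 μM PSMB4, PSMB1 and PSMB3 were at -0.01, -0.11 and 0.01 without mitochondrial and small RNA genes. With the length trend removed they were at -0.08, -0.18 and -0.09 at that dose.

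As a class, 6 of 7 β subunits were higher and 1 lower at 5 μM, the median being 0.47. At 2.5 μM 4 were higher and 1 lower with a median of 0.27. Between the doses 5 were higher and 0 lower with a median of 0.32. Over all genes tested, 36.5% were higher and 45.1% lower at 5 μM, and among abundant genes 55.9% and 21.8%. The shares were 36.4% and 43.4% of all genes at 2.5 μM and 26.8% and 30.1% between the doses. Without mitochondrial and small RNA genes the β median at 5 μM was 0.09, with PSMB4, PSMB5 and PSMB6 higher and PSMB2 lower. With the length trend removed it was -0.10, with PSMB6 higher and PSMB2 and PSMB3 lower. The spread of the class widened. In FPKM, which is per length of all exons, the highest β level was 2.46 times the lowest in DMSO, 4.15 times at 2.5 μM and 5.05 times at 5 μM. PSMB4 was the highest in each library, and in FPKM the lowest was PSMB5 in DMSO and PSMB2 in both JG231 libraries. Per length of the canonical transcript PSMB2 was the lowest in each library, at 58.1, 37.4 and 42.9. PSMB4 was then at 289, 351 and 490, so the range was wider than in FPKM.

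The α subunits had the lowest median of the 4 classes in each comparison. Their median log2 change was 0.23 at 5 μM, where 3 of 7 were higher and 1 was lower. It was -0.01 at 2.5 μM, with 1 higher and 1 lower, and 0.07 between the doses, with 1 higher and 0 lower. Of all genes tested, 36.5% were higher and 45.1% lower at 5 μM, and 36.4% and 43.4% at 2.5 μM. Between the doses the shares were 26.8% and 30.1%. Abundant genes had 55.9% and 21.8% at 5 μM. PSMA3 (ENSG00000100567, chr14:58244843-58272012, plus strand), an α ring subunit, had 53.8, 63.4 and 66.3 FPKM in DMSO, 2.5 μM and 5 μM. Its log2 change of 0.30 (0.23 to 0.37) was the highest of the class at 5 μM, and at 2.5 μM it was 0.24. With mitochondrial and small RNA genes left out of the scaling, PSMA3 was at -0.08 and -0.06, so its direction was not kept.

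PSMA2 (ENSG00000106588, chr7:42916828-42932185, minus strand), whose N-terminal tail contributes to the gate, stood at 2.63 FPKM in DMSO and at 1.96 and 1.67 FPKM with 2.5 and 5 μM JG231. Each library was below the one of the next lower dose, with a log2 change of -0.62 (-0.87 to -0.44) at 5 μM and -0.41 (-0.65 to -0.21) at 2.5 μM. The gene shares its exons with another. A read-through gene on the same strand, AC010132.3, covers 100% of the canonical transcript of PSMA2 and was listed at 0 in all libraries. PSMA6, with 1.52, 2.15 and 1.79 FPKM, shares 81.4% of its transcript with AL121594.1, and PSMA1, with 13.2, 13.1 and 13.0 FPKM, shares 67.0% with AC018523.2, both also listed at 0. These 3 had the lowest FPKM of the α class in each library, and the part of the overlaps in their levels was not tested. Per length of the canonical transcript, PSMA5 was below PSMA1 in each library, at 24.1, 23.0 and 29.7 beside 33.6, 33.4 and 33.2. PSMA6 was at 0.23 at 5 μM with a counting interval of -0.04 to 0.53, and at 0.47 (0.22 to 0.79) at 2.5 μM. PSMA1 was at -0.02 and -0.01. Scaling that omitted mitochondrial and small RNA genes put PSMA6 at -0.13 for the higher dose and 0.20 for the lower. PSMA1 lay at -0.39 and -0.30 on that scale. Removal of the length trend gave -0.30 and 0.14 for PSMA6 and -0.49 and -0.31 for PSMA1. The pseudogene row PSMA6P1, at 2.94, 3.58 and 3.93 FPKM, lay above PSMA6 in each library and was highest at 5 μM. Without the 3 overlapped genes, 21 of 28 members were higher and 1 was lower at 5 μM, with a median of 0.34.

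Of the remaining α subunits, PSMA7 had the highest FPKM of any member in every library, with 196, 212 and 239. Per length of the canonical transcript, PSMB4 lay above PSMA7 at 5 μM, at 490 beside 435. PSMA7 changed by a log2 value of 0.28 in the 5 μM library and 0.11 in the 2.5 μM library. PSMA5 had 16.03, 15.3 and 19.7 FPKM, with 0.30 at 5 μM, -0.06 at 2.5 μM and a step of 0.36 between the doses. PSMA4, another subunit whose tail contributes to the gate, had 27.8, 24.5 and 28.2 FPKM and was at 0.02 and -0.18. Scaling without mitochondrial and small RNA genes put all 3 below DMSO at 5 μM, PSMA7 at -0.10, PSMA5 at -0.08 and PSMA4 at -0.36, and PSMA7 was at -0.26 with the length trend removed.

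**Figure D2:**
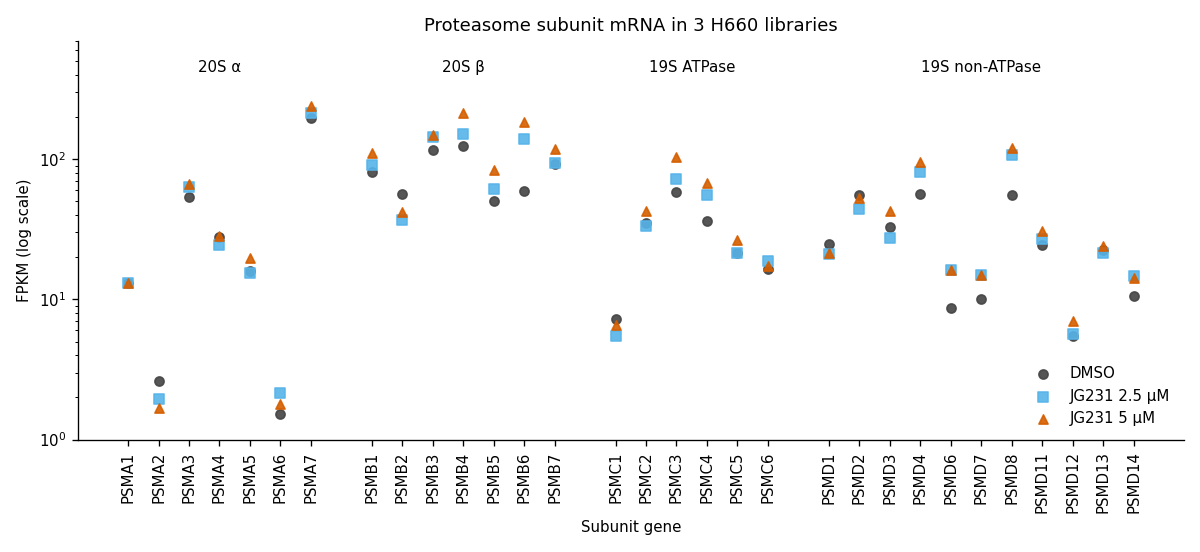
FPKM of the 31 subunit genes on a log axis in the DMSO (circles), 2.5 μM (squares) and 5 μM JG231 (triangles) libraries, ordered by class. The α subunits range from 1.52 (PSMA6) to 196 FPKM (PSMA7) in DMSO, whereas the β subunits lie within 50.6 to 125 FPKM.

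The levels kept their order across libraries more than their distances. The Spearman correlation of FPKM across the 31 members was 0.97 between DMSO and 2.5 μM and 0.96 between DMSO and 5 μM. The points share gene length and annotation, so the values are a description. Summed over the members, FPKM was 1372 in DMSO and 1638 and 1970 with 2.5 and 5 μM JG231, a ratio of 1.44 at the higher dose and 1.19 at the lower dose. As a share of all FPKM in the library this was 0.418%, 0.516% and 0.548%. At 5 μM the summed level of the β subunits was 1.55 times and that of the ATPases 1.52 times the DMSO level, compared to 1.43 times for the non-ATPase subunits and 1.19 times for the α subunits. Summed levels weigh the abundant members most. The 20S and 19S genes as wholes had similar medians, at 0.30 and 0.34 at 5 μM, 0.15 and 0.16 at 2.5 μM, and 0.20 and 0.22 between the doses. With the trend over transcript length removed, the 20S median minus the 19S median was -0.40 at the higher dose and -0.18 at the lower dose.

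**Figure D3:**
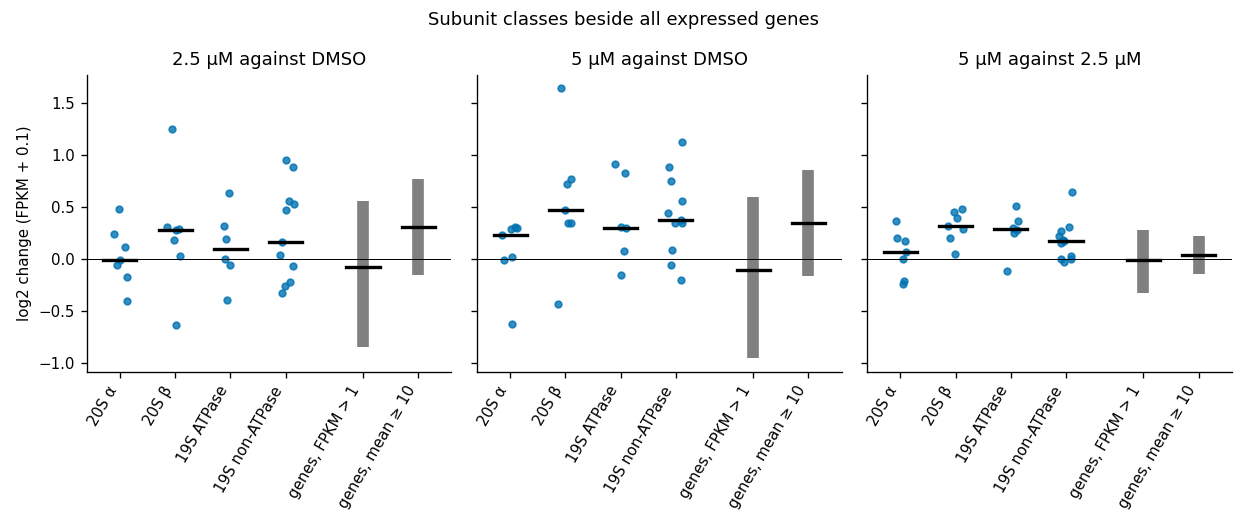
Log2 changes of the members of each subunit class (points, with the class median as a bar) beside the quartile range (grey) and median of all genes with FPKM over 1 in either library and of genes averaging 10 FPKM or more, for 2.5 μM against DMSO, 5 μM against DMSO and 5 μM against 2.5 μM. In the last panel the β and ATPase medians are 0.32 and 0.29, and the median of abundant genes is 0.04.

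Among the ATPases, 4 of 6 were higher and 0 were lower at 5 μM, with a median log2 change of 0.30. At 2.5 μM 2 were higher and 1 was lower with a median of 0.09. Between the doses 4 were higher and 0 lower with a median of 0.29. The background at 5 μM was 36.5% higher and 45.1% lower, and 55.9% and 21.8% among abundant genes, whose median was 0.35. It was 36.4% and 43.4% of all genes at 2.5 μM, and 26.8% and 30.1% between the doses. Without mitochondrial and small RNA genes the ATPase median at 5 μM was -0.08, with PSMC3 and PSMC4 higher and PSMC1 and PSMC6 lower. PSMC4 (ENSG00000013275, chr19:39971165-39981764, plus strand) had 36.0 FPKM in DMSO and 55.8 and 67.7 FPKM with 2.5 and 5 μM JG231. Its level was higher in each successive library, with log2 changes of 0.91 (0.82 to 0.997) at 5 μM and 0.63 (0.54 to 0.72) at 2.5 μM. PSMC3, which like PSMC4 ends in a tail that docks into the α ring, had 57.9, 72.2 and 103 FPKM with 0.83 at 5 μM and 0.32 at 2.5 μM. The step of PSMC3 between the doses was 0.51, or 0.33 with a common sum, where the change at 2.5 μM was 0.37. At 2.5 μM PSMC3 was within the threshold, at 0.03, without mitochondrial and small RNA genes, and at 0.08 with the length trend removed.

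PSMC1 (ENSG00000100764, chr14:90256527-90275429, plus strand), whose tail opens the gate, had the lowest ATPase level with 7.27, 5.51 and 6.54 FPKM. Both JG231 libraries were below DMSO, by -0.40 (-0.56 to -0.25) at 2.5 μM and -0.15 (-0.29 to -0.01) at 5 μM. Its canonical transcript overlaps NRDE2 on the opposite strand over 83.2%, NRDE2 lay at 1.55, 1.21 and 0.86 FPKM, and whether the counting used strand is not given in the sources used here. With the pseudogene rows of PSMC1 added, among them PSMC1P1 at 3.30, 1.49 and 2.14 FPKM, its change at 2.5 μM was -0.59. PSMC2 had 34.8, 33.3 and 42.9 FPKM with -0.06 at 2.5 μM and 0.30 at 5 μM, and PSMC5 had 21.5, 21.4 and 26.4 FPKM with -0.00 and 0.30. As deposited, both were near DMSO at the lower dose and higher at the upper. Without mitochondrial and small RNA genes PSMC2 was instead at -0.36 and -0.08 and PSMC5 at -0.29 and -0.08, and with the length trend removed PSMC5 was at -0.28 and -0.14. The transcript of PSMC5 overlaps FTSJ3 on the opposite strand over 13.7%, and FTSJ3 lay at 9.42, 10.22 and 10.49 FPKM. PSMC6 had 16.5, 18.8 and 17.3 FPKM with 0.19 and 0.07, its 2.5 μM library being the highest as deposited. Scaling that omitted mitochondrial and small RNA genes turned PSMC6 to -0.10 and -0.31, with a lower level in each successive library. Removal of the length trend gave 0.05 and -0.17 for PSMC6.

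The non-ATPase subunits held several patterns. Of 11, 8 were higher and 0 were lower at 5 μM with a median log2 change of 0.37. At 2.5 μM 5 were higher and 2 lower with a median of 0.16. Between the doses 3 were higher and 0 lower with a median of 0.17. The background at 5 μM was 36.5% higher and 45.1% lower over all genes, and 55.9% and 21.8% among abundant genes. It was 36.4% and 43.4% of all genes at 2.5 μM, and 26.8% and 30.1% between the doses. Without mitochondrial and small RNA genes the median of the class at 5 μM was -0.006. PSMD8 (ENSG00000099341, chr19:38374563-38383850, plus strand), the lid subunit whose arrival completes lid assembly, had 55.2 FPKM in DMSO and 106 and 119.8 FPKM with 2.5 and 5 μM JG231. The step lay between DMSO and the lower dose, with log2 changes of 0.95 (0.89 to 1.001) at 2.5 μM and 1.12 (1.07 to 1.17) at 5 μM, and 0.17 between the doses. PSMD6, a scaffold subunit of the lid, had 8.75, 16.2 and 16.2 FPKM with 0.89 at 2.5 μM and 0.88 at 5 μM. PSMD7, the catalytically inactive partner of PSMD14, had 10.1, 14.9 and 14.9 FPKM with 0.55 at either dose, or 0.26 and 0.17 at the lower and higher dose when scaled without mitochondrial and small RNA genes. As deposited, both JG231 libraries stood apart from DMSO and could not be separated from each other for PSMD6 and PSMD7. With a common sum the change between the doses was -0.18 for PSMD6 and -0.18 for PSMD7. The canonical transcript of PSMD7 overlaps AC009120.2 on the opposite strand over 51.6%, and that row lay at 1.96, 0.33 and 0.58 FPKM.

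PSMD14 (ENSG00000115233, chr2:161308425-161411717, plus strand), the deubiquitinase of the lid, followed the same shape as its partner PSMD7. It had 10.51, 14.6 and 14.3 FPKM, with log2 changes of 0.47 (0.37 to 0.58) at 2.5 μM and 0.44 (0.34 to 0.54) at 5 μM. Neither was past the threshold when scaled without mitochondrial and small RNA genes, at 0.18 and 0.06, or with the length trend removed, at 0.24 and 0.06. PSMD4 (ENSG00000159352, chr1:151254709-151267479, plus strand), a ubiquitin receptor, had 56.5, 81.2 and 94.7 FPKM. It was higher in each successive library, with 0.52 (0.46 to 0.59) at 2.5 μM and 0.74 (0.68 to 0.81) at 5 μM. At 2.5 μM PSMD4 was within the threshold without mitochondrial and small RNA genes, at 0.231, and with the length trend removed, at 0.246.

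PSMD3 (ENSG00000108344, chr17:39980807-39997959, plus strand), a lid scaffold subunit, was the one member past the threshold in opposite directions. Its FPKM was 32.8 in DMSO, against 27.3 and 42.5 with 2.5 and 5 μM JG231. The lower-dose library was the lowest and the upper-dose library the highest, with log2 changes of -0.26 (-0.34 to -0.19) at 2.5 μM and 0.37 (0.31 to 0.44) at 5 μM. The step of 0.64 (0.57 to 0.71) between the doses was the largest of any member. Rescaled without mitochondrial and small RNA genes, PSMD3 was at -0.01 at 5 μM and -0.55 at 2.5 μM, while the step between the doses was 0.55. With a common sum PSMD3 was within the threshold, at -0.21 and 0.24 for the lower and higher dose.

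The scaffold subunits of the base were lower or level. PSMD1 (ENSG00000173692, chr2:231056845-231173116, plus strand) had 24.8, 21.2 and 21.5 FPKM. Both JG231 libraries were slightly below DMSO, by -0.23 (-0.28 to -0.18) at 2.5 μM and -0.20 (-0.25 to -0.16) at 5 μM, within the threshold. PSMD1 was past it, at -0.52 and -0.58, once mitochondrial and small RNA genes were left out of the scaling, and at -0.33 for 5 μM with a common sum. PSMD2, which docks shuttle receptors, had 55.4, 44.2 and 53.1 FPKM with -0.33 at 2.5 μM and -0.06 at 5 μM. Among the other lid subunits, PSMD11, which bridges lid and core, had 24.3, 27.1 and 30.7 FPKM with 0.16 at 2.5 μM and 0.34 at 5 μM. PSMD12 had 5.50, 5.65 and 6.99 FPKM with 0.04 and 0.34. When scaled without mitochondrial and small RNA genes, both turned, PSMD11 to -0.13 and -0.04 and PSMD12 to -0.25 and -0.04. PSMD13 had 22.5, 21.4 and 23.8 FPKM with -0.07 and 0.08, so it was within the threshold at each dose. PSMD13 passed it on the lower side at -0.36 and -0.30 when scaled without mitochondrial and small RNA genes, and at -0.30 and -0.29 with the length trend removed.

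The members followed more than one order of libraries, and the order depends on the scaling. As deposited, in 14 of 31 the level was higher in each successive library from DMSO to 5 μM, an order found in 20.5% of the 16347 genes with an FPKM over 1 in any library. In 10 of 31 the 2.5 μM library was the lowest, compared to 23.0% of these genes. The 10 were PSMA4, PSMA5, PSMB2, PSMC1, PSMC2, PSMC5, PSMD1, PSMD2, PSMD3 and PSMD13. In 5 the 2.5 μM library was the highest, namely PSMA6, PSMC6, PSMD6, PSMD7 and PSMD14, compared to 25.5% of these genes. In PSMA1 and PSMA2 the level was lower in each successive library, an order found in 24.3%. Counting intervals between the doses spanned 0 for PSMD6, PSMD7 and PSMD14, and those of PSMA1 did so in every comparison. Several other orders also rest on differences within counting error, such as that of PSMB3 between the doses. With a common sum 11 were higher in each successive library (12.6% of the same genes), 7 were lowest at 2.5 μM (16.5%) and 10 were highest there (35.5%). Without mitochondrial and small RNA genes the members higher in each successive library numbered 5 (11.95% of the genes), namely PSMB6, PSMC3, PSMC4, PSMD4 and PSMD8, and those lowest at 2.5 μM numbered 16 (23.9%). The 95% counting intervals given here cover counting error only, since copies made by PCR are not independent molecules, and they contain none of the variation between cultures.

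Changes ran with transcript length, among the members as among other genes. Across the 31 members the Spearman correlation between the log2 change and the canonical transcript length was -0.44 at 5 μM and -0.53 at 2.5 μM, compared to -0.37 and -0.26 across 11200 protein-coding genes averaging 1 FPKM or more. These points share their libraries, and genes are not independent. For the 20 members of up to 2000 bp the medians were 0.45 at the higher and 0.29 at the lower dose, and the 2722 genes of that length had 0.45 and 0.33. The 11 longer members had 0.07 and -0.18, and the 8478 longer genes had -0.11 and -0.03. Between the doses the members showed no such relation, with a correlation of 0.02, whereas that of the protein-coding genes was -0.31. There the longer members were at 0.24 and the longer genes at -0.07.

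The classes differ in length. The median canonical transcript was 918 bp for the β subunits, 1195 bp for the α subunits, 1631 bp for the non-ATPase subunits and 1958.5 bp for the ATPases. With the length trend over protein-coding genes removed, the medians of all members were 0.06 and -0.08 at the higher and lower dose, and 9 were higher and 7 lower at 5 μM, beside 38.5% and 35.8% of 11186 protein-coding genes. At 5 μM 10 of the 31 members changed sign. The β median was then -0.10 at 5 μM and the non-ATPase median 0.19, so that the direction of the β median was not kept. PSMB6 was at 1.04 and PSMD8 at 0.73 at 5 μM on this scale, PSMC4 at 0.58 and PSMD6 at 0.45, while PSMB5 was at 0.20. The part of transcript length in the changes was not tested further.

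**Figure D4:**
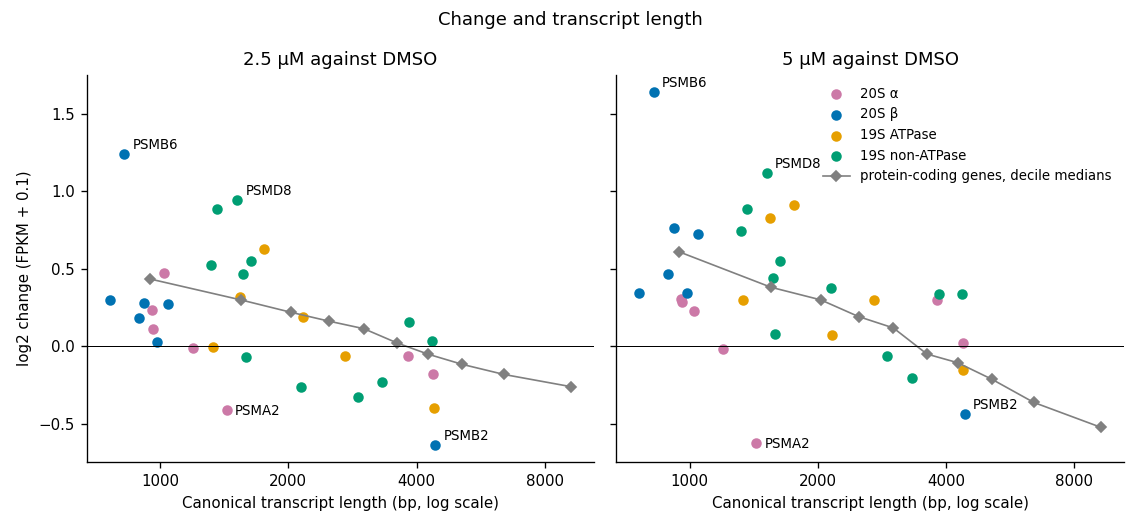
Log2 change of the members (points, coloured by class) plotted by canonical transcript length on a log axis, for 2.5 μM (left) and 5 μM JG231 (right) against DMSO. The grey line joins the medians of 10 length groups of 11200 protein-coding genes, falling from 0.61 in the shortest to -0.52 in the longest group at 5 μM, and PSMB6 and PSMD8 lie well above it while PSMA2 lies well below it.

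Genes that act on the proteasome were listed by role. Their changes are given as deposited. Leaving mitochondrial and small RNA genes out of the scaling shifts changes by about -0.38 at 5 μM and -0.29 at 2.5 μM. At 5 μM the background was 36.5% higher and 45.1% lower among all genes tested, and 55.9% and 21.8% among abundant genes. At 2.5 μM it was 36.4% and 43.4% among all genes tested, and 53.1% and 21.2% among abundant genes. Of 9 assembly chaperones, 6 (66.7%) were higher and 1 (11.1%) was lower at 5 μM with a median log2 change of 0.42, and at 2.5 μM, where 8 had an FPKM over 1 in either library, 4 were higher and 0 lower, the median being 0.29. PSMG2, which pairs with PSMG1 to start the α ring, had 27.4, 43.4 and 53.7 FPKM in DMSO, 2.5 μM and 5 μM, with log2 changes of 0.66 and 0.97 at the lower and higher dose. PSMG3, which acts with PSMG4 on the same ring, had 31.4, 55.9 and 59.4 FPKM with 0.83 and 0.92. PSMD9, a chaperone of the ATPase ring, was low and below that filter in the comparison at 2.5 μM, with 0.47, 0.95 and 1.497 FPKM and changes of 0.88 and 1.49. All 3 were lowest in the DMSO library. Of the 5 genes for activators and their counterpart, an inhibitor, 3 were higher and 0 lower at 5 μM, and 1 was higher and 1 lower at 2.5 μM. The largest change there at 5 μM was in PSMF1, the inhibitor, which had 16.1, 28.5 and 30.99 FPKM with 0.82 and 0.94, followed by the activator PSME2 with 43.2, 46.5 and 57.2 FPKM and 0.11 and 0.40.

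Among 7 other proteasome-bound proteins, 2 were higher and 1 was lower at 5 μM with a median of -0.01. ADRM1, a ubiquitin receptor of the base beside PSMD4, had 53.3, 107 and 109 FPKM with 1.01 at 2.5 μM and 1.03 at 5 μM. TXNL1, a thioredoxin-like protein bound to the 19S particle, was at 0.65 and 0.48, and SEM1, a small subunit of the lid, was at -0.11 and -0.43. The lid thus held SEM1 on the lower side beside PSMD8 and PSMD6 on the higher side. Shuttle receptors carry ubiquitylated proteins to the proteasome. Of these, RAD23B had 45.6, 75.3 and 70.4 FPKM with 0.72 and 0.63, and DDI2 had 5.29, 2.88 and 2.68 FPKM with -0.86 and -0.95.

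The genes that control NFE2L1, or share its sites, were mixed. Of 9, 4 were higher and 3 lower at 5 μM, the median being 0.11. At 2.5 μM 6 were higher and 2 lower, the median being 0.33. Over all genes tested, 36.5% were higher and 45.1% lower at 5 μM, and 36.4% and 43.4% at 2.5 μM. Abundant genes had 55.9% and 21.8% with a median of 0.35 at 5 μM. At 2.5 μM they had 53.1% and 21.2% with a median of 0.30, near that of this list. NFE2L1 itself had 32.8, 30.9 and 29.9 FPKM, within the threshold at -0.09 and -0.13. NFE2L2, its relative that answers oxidative stress, had 11.8, 28.5 and 29.0 FPKM with 1.26 and 1.29. MAFF, a small partner protein of both, had 2.99, 10.2 and 15.003 FPKM with 1.74 and 2.29, and DDI2, the protease that cleaves NFE2L1 into its active form, was on the lower side as given above. NFE2L1 is also regulated as a protein, which these RNA values do not measure.

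Ubiquitin itself was followed by 2 of its genes. RPS27A, which encodes ubiquitin fused to a ribosomal protein, had 105, 152 and 189 FPKM with log2 changes of 0.53 and 0.85 at the lower and higher dose. UBB, which encodes linked copies of ubiquitin, had 245.8, 157 and 232 FPKM and was at -0.65 and -0.08. Like 10 of the members as deposited, UBB was lowest in the 2.5 μM library. The immunoproteasome subunits that can replace the catalytic β subunits had another order of libraries than PSMB6. PSMB9, which replaces PSMB6, had 23.2, 38.5 and 28.7 FPKM with 0.73 at 2.5 μM and 0.31 at 5 μM. PSMB8, which replaces PSMB5, had 40.6, 52.1 and 49.7 FPKM with 0.36 and 0.29, and PSMB10, which replaces PSMB7, had 8.79, 11.1 and 8.37 FPKM with 0.33 and -0.07. All 3 were highest in the 2.5 μM library, whereas the subunits they replace were highest at 5 μM. The testis α subunit PSMA8 and the thymus β subunit PSMB11 were listed at 0 in all libraries.

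**Figure D5:**
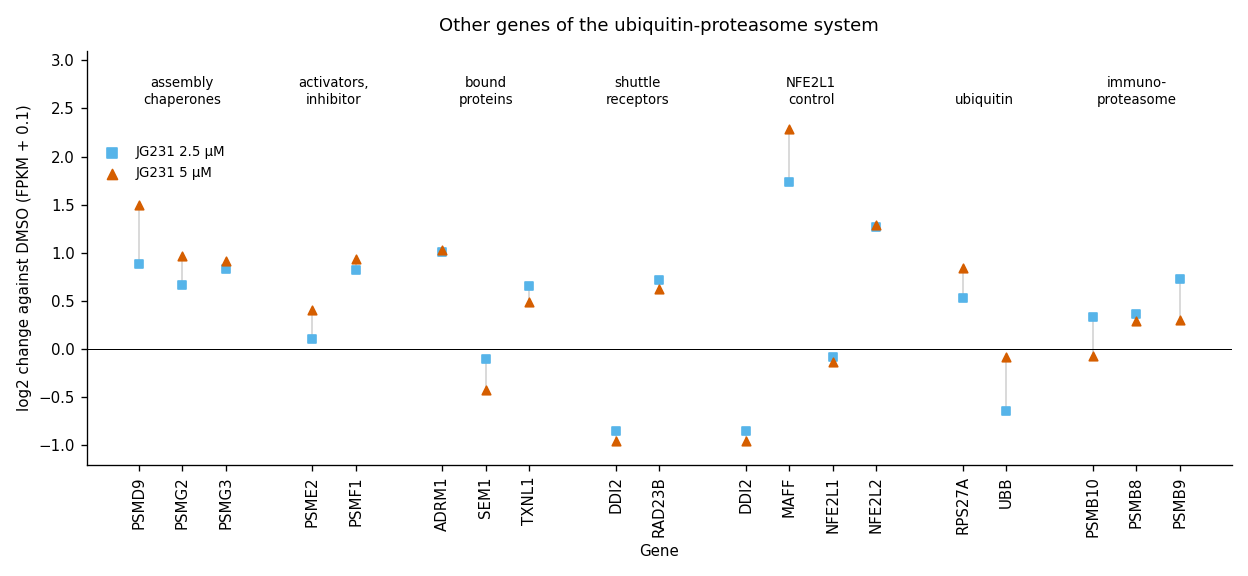
Log2 change compared to DMSO at 2.5 μM (squares) and 5 μM JG231 (triangles) for the other genes of the ubiquitin-proteasome system described above, grouped by role, with DDI2 drawn in both lists that hold it. MAFF lies highest at 2.29 and DDI2 lowest at -0.95 for 5 μM.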

How the data were processed

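RNA-seq of H660 cells treated with DMSO, 2.5 μM or 5 μM JG231 for 24 h was analysed, with 1 library per condition. The sample labels describe stranded libraries. The methods name HISAT and StringTie, and the submitters' processing notes name HISAT2, featureCounts and GRCh38 (hg38). Versions are not given in the sources used here. The authors deposited gene-level FPKM, not scaled between libraries. Depth was read from FPKM steps in genes with a single transcript, where values were whole multiples within 0.05 for 91.9% of 2781, 90.2% of 1739 and 84.9% of 570 genes in DMSO, 2.5 μM and 5 μM. In genes with several transcripts FPKM followed the merged exon length better than the canonical length. Fragments per member are therefore approximate. Intervals are exact Clopper-Pearson at 95%.

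Log2 changes used a pseudocount of 0.1, which understates changes of low genes, and a threshold of 0.25. Gene coordinates, lengths and overlaps came from GENCODE 44 on GRCh38, with 58207 rows matched by identifier, and promoters from RefSeq. The members and gene lists were chosen with earlier results of these data known. Named in full were the highest and lowest member of each class at 5 μM, the catalytic subunits, PSMD4, PSMD14 and members past the threshold in opposite directions. Some genes of the lists are not reported here. In other lists up to 3 genes with the largest change of the same sign at both doses, and genes listed at 0, follow that rule. NFE2L1, UBB and PSMB10 were added after their values were seen. Alternatives were pseudocounts of 1 and 0.01, thresholds of 0.5 and 1, a mean FPKM of at least 5, no filter, rescaling, centring on the median gene, subtraction of a lowess fit on length (fraction 0.3), and pseudogene rows added. Leaving out overlapped members was added after seeing the data. The code was tested on simulated data. Computation used Python 3.11.15 with pandas 2.3.3, numpy 2.4.6, statsmodels 0.14.6 for lowess, scipy 1.17.1 for intervals and ranks, and matplotlib 3.10.9.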

Additional observations from a re-analysis of the deposited data

How the results depend on the processing

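With 1 library per condition, nothing here separates an effect of JG231 from variation between cultures or libraries, and the cause of each shift below was not tested. No paired analysis was possible because each condition has 1 library. Medians of the members are given at 5 μM, 2.5 μM and between the doses in that order. They were 0.21, 0.21 and 0.019 with a common sum. They were -0.039, -0.13 and 0.11 with a common sum without mitochondrial and small RNA genes, and 0.065, -0.076 and 0.11 with the length trend removed. The members higher numbered 11, 13 and 4 with a common sum, 8, 5 and 7 without mitochondrial and small RNA genes, 9, 5 and 8 with the length trend removed, 9, 6 and 2 at a threshold of 0.5, and 2, 1 and 0 at a threshold of 1. The members lower numbered 4, 4 and 3, then 9, 14 and 2, then 7, 9 and 2, then 1, 1 and 0, then 0, 0 and 0. Among all genes tested, 31.5%, 38.5% and 16.9% were higher and 49.98%, 41.5% and 45.2% lower with a common sum. Without mitochondrial and small RNA genes 22.9%, 24.6% and 20.997% were higher and 60.1%, 56.2% and 36.7% lower. With the length trend removed, 38.5%, 39.7% and 18.8% of protein-coding genes were higher and 35.8%, 33.5% and 25.999% lower. Shares of all genes at thresholds of 0.5 and 1 are not given here. At 5 μM 1 member was lower at a minimum mean FPKM of 5 and 1 without overlapped members. Between the doses 1 was lower with a pseudocount of 0.01. The difference of the 20S and 19S medians was -0.04, -0.01 and -0.02, but -0.40, -0.18 and -0.05 with the length trend removed, and 0.063 between the doses without overlapped members. Without mitochondrial and small RNA genes 14, 9 and 3 of the 31 members changed sign, and with the length trend removed 10, 7 and 3, compared to 3, 2 and 6 with a common sum. Among the class medians and the members described with coordinates, those that changed sign without mitochondrial and small RNA genes at 5 μM were the α median at -0.13, the ATPase median at -0.081, the non-ATPase median at -0.0064, PSMA3 at -0.078, PSMB7 at -0.033 and PSMD3 at -0.0064. At 2.5 μM they were the β median at -0.020, the ATPase median at -0.20, the non-ATPase median at -0.13, PSMA3 at -0.055, PSMB5 at -0.020 and PSMB7 at -0.26. With the length trend removed they were at 5 μM the α median at -0.26, the β median at -0.10, PSMA3 at -0.25, PSMC1 at 0.016 and PSMB7 at -0.19, and at 2.5 μM the β median at -0.092, the ATPase median at -0.038, PSMA3 at -0.11, PSMB5 at -0.059 and PSMB7 at -0.31. The α median at 2.5 μM, -0.01, was 0.039 with a common sum and 0.023 without overlapped members. Pseudocounts, centring, the filters and the pseudogene rows changed the sign of no median of the members or a class and of no change of the members examined singly.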
